A study of Homo sapiens with 2 samples.

Results

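The members are 8 genes of the pacemaker and conduction programme of the heart (HCN4, SHOX2, CACNA1G, KCNQ1, KCNH2, KCNJ2, KCNJ3 and KCNJ5), taken by symbol from the 36601 genes of each count matrix. The data are single-cell RNA counts of 2 blood-generating heart-forming organoids (BG-HFOs) at day 14, named 32.7 and 33.10, with 1 library each. Both were grown from the human embryonic stem cell line hES3 NKX2.5-eGFP, in which a fluorescent protein reports NKX2-5, by aggregating cells in Matrigel, modulating WNT signalling and adding factors that drive endothelium and blood. With 1 line and 1 condition, cell classes were compared with each other, each class giving 1 sum of counts per organoid, and p-values measure only the spread between these organoids.

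Pacemaker cells of the sinoatrial node fire on their own because HCN4 carries the funny current and T-type calcium channels such as CACNA1G help the membrane to reach threshold. SHOX2 is a transcription factor that supports this programme by restraining NKX2-5. Heart muscle repolarizes through the delayed rectifiers KCNQ1 and KCNH2, holds its resting potential with the inward rectifier KCNJ2, and slows its beat under vagal input through KCNJ3 and KCNJ5, which assemble into the acetylcholine-gated potassium channel.

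Windows around the transcription starts of HCN4, KCNJ5 and KCNJ2 are shown because the levels of HCN4 and KCNJ5 were highest in cardiomyocytes and that of KCNJ2 in endothelial cells. They are from RefSeq (GRCh38.p14) and run 5′ to 3′ on the gene's strand, from 250 bases before the start to 50 after it, with each GGGCGG, the core of an SP/KLF site, in capitals where it lies on either strand. The HCN4 window is chr15:73368909-73369208 (minus strand), that of KCNJ5 chr11:128891106-128891405 (plus strand) and that of KCNJ2 chr17:70169282-70169581 (plus strand). The KCNJ2 window follows a RefSeq start that lies downstream of the gene start in GENCODE v44 (70168673), so all of it lies within the gene as placed there.
HCN4: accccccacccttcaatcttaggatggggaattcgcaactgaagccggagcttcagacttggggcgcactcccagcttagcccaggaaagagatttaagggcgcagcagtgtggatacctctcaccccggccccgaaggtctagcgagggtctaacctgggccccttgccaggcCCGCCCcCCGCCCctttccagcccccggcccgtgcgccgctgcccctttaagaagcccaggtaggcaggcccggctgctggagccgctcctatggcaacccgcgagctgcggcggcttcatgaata
KCNJ5: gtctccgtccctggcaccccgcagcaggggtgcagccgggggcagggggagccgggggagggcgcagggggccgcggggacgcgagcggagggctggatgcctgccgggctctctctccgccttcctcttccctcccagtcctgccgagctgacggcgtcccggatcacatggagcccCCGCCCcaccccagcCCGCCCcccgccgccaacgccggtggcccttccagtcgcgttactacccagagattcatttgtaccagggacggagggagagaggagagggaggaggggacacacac
KCNJ2: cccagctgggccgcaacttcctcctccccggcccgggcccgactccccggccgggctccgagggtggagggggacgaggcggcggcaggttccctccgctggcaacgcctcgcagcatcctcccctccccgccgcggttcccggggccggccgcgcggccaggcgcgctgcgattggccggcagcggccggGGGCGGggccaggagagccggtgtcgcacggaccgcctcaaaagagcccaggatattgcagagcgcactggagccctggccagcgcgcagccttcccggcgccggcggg
GGGCGG had 2 matches in the HCN4 window, 2 in that of KCNJ5 and 1 in that of KCNJ2, and 45.0% of 35116 RefSeq windows of this length hold it. On both strands, none of these 3 windows held AGATAA, a motif of the blood and heart factors of the GATA family (in 10.3% of all windows), the T-box motif TCACACC (3.45%), the NKX2 motif TNAAGTG (10.2%), the ETS motif CCGGAAG (10.3%) or the E-box CACGTG (7.26%). G and C made up 65.0% of the HCN4 window, 72.7% of that of KCNJ5 and 78.0% of that of KCNJ2, against a median of 58.7%. CACNA1G and KCNQ1 had no entry in the table of windows.

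The libraries held 191152562 and 233818881 unique molecular identifiers (UMIs, counted RNA molecules) in 16866 and 19948 barcodes, of which 16792 and 19893 cells were kept and 100 barcodes were shared. Cells were assigned by gates on raw UMIs. A cardiomyocyte (CM) had at least 5 UMIs of MYH6, the myosin heavy chain of atrial and embryonic muscle, and passed no other gate (1210 and 1083 cells). Endothelial cells (2232 and 2000) had 3 or more UMIs of CDH5 and TIE1, stroma (2460 and 2980) 3 or more of WT1, TBX18, PRRX1, PDGFRA and TCF21, and the erythroid, megakaryocyte and leukocyte classes 5 or more of their own genes. Markers outside the gates were compared with these names: the sarcomere genes TNNT2 and MYBPC3 averaged 5777 and 194 UMIs scaled to 1000000 per sum (CPM) in CMs and at most 432 and 2.76 CPM in the other 5 classes, and the endothelial PECAM1 averaged 416 CPM in endothelial cells and 17.4 CPM in CMs. Some were shared: PECAM1 averaged 228 CPM in megakaryocytes and 73.6 CPM in leukocytes, and the sarcomere gene MYL4, at 5137 CPM in CMs, averaged 873 CPM in megakaryocytes and 641 CPM in erythroid cells. Cells passing several gates (1749 and 2450) were kept out, and 930 and 1178 of them had 5 or more MYH6 UMIs. Of the latter, 601 and 853 passed the stroma gate, one gene of which, PDGFRA, averaged 52.7 CPM in CMs.

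HCN4 (chromosome 15, 73319859 to 73368958, minus strand, GRCh38 with GENCODE v44) was concentrated in CMs. Its level was 53.4 CPM in organoid 32.7 and 58.1 CPM in organoid 33.10 in CMs, against 0.409 and 0.827 CPM in endothelial cells, 8.83 and 11.0 CPM in stroma, and 0.162 to 1.34 CPM in the blood classes. The CM values lay above those of every other class in both organoids, stroma came second, and endothelial cells, leukocytes and erythroid cells overlapped one another in that order. In edgeR's quasi-likelihood test on the summed counts with Benjamini-Hochberg adjustment over 21762 genes, HCN4 was higher in CMs than in endothelial cells by 6.51 ± 0.35 on the log2 scale (SE, adjusted p = 1.89e-07), than in stroma by 2.55 ± 0.26 (adjusted p = 4.52e-05) and than in the mean of the 3 blood classes by 6.33 ± 0.24 (adjusted p = 6.03e-09). Without organoid 33.10 the difference from blood was 5.70 between log2 CPM with a small count added, a measure other than that of the fit.

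Cells were thinned to 3000 UMIs each to compare shares at equal depth, leaving out 220 and 89 shallower CMs. HCN4 was then detected in 13.5% of 990 CMs of organoid 32.7 (exact binomial 95% interval 11.5 to 15.8%) and in 14.6% of 994 CMs of organoid 33.10 (12.5 to 16.9%). Without thinning it was found in 26.4% and 35.3% of CMs, whose median depth was 6851 and 8865 UMIs. Endothelial cells, at median depths of 13026.5 and 11226.5 UMIs, gave the background: 0.137% and 0.256% when thinned and 0.582% and 1.00% otherwise. Intervals cover counting error only.

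HCN4 in stroma was above what sarcomere RNA showed there. Relative to the CM level of the same organoid, stroma held 16.5% and 18.9% of HCN4, while the sarcomere genes TNNT2, ACTN2, MYL4, MYBPC3 and TNNC1 stood between 1.07% and 9.32%. In endothelial cells HCN4 was at 0.766% and 1.42% of the CM level, and those 5 genes were at 0.639% to 1.35%. After thinning, HCN4 was detected in 3.11% of stromal cells of organoid 32.7 and in 3.70% of those of organoid 33.10. What free RNA added to these values was not tested.

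SHOX2 (chromosome 3, 158095905 to 158106420, minus strand) was not detected in CMs: 0 of 1210 and 0 of 1083 cells held a UMI, which at a limit of 3 counts allows shares of cells with a UMI of up to 0.248% and 0.277% (exact binomial 95% upper limits 0.304% and 0.340%). It was scarce elsewhere, with 215 and 120 UMIs in 180 and 109 cells. The highest mean, in leukocytes, came from 2.48 and 0.892 CPM, and the ranges of leukocytes, megakaryocytes, endothelial cells, erythroid cells and stroma overlapped from each to the next. Against a floor of 3 counts over the CMs of both organoids (0.137 CPM), the pooled level was at least 13.5-fold higher in leukocytes, 9.55-fold in megakaryocytes, 7.67-fold in endothelial cells, 4.69-fold in erythroid cells and 3.96-fold in stroma. These bounds hold for the pool only. Stroma held 31 and 10 UMIs, and its 0.248 CPM in organoid 33.10 lay below the CM floor of that organoid (0.267 CPM). Leukocytes held 46 and 11 UMIs.

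In edgeR's test SHOX2 was lower in CMs than in endothelial cells (adjusted p = 0.0145) and than in blood (adjusted p = 0.0046). The difference from stroma did not pass (adjusted p = 0.0652), but it did with the organoid as a block (adjusted p = 0.0046). SHOX2 passed the filter on low counts only through other classes, so a call of higher in CMs was not open to it. The direction of these calls was thus fixed beforehand. SHOX2 overlaps RSRC1 on the opposite strand, and CMs held 792 and 931 UMIs of RSRC1. Of all cells with 5 or more MYH6 UMIs, 10 of 2140 and 10 of 2261 held a SHOX2 UMI, and these had passed a second gate. A comparison of SHOX2-positive with SHOX2-negative CMs could not be made.

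CACNA1G (chromosome 17, 50560715 to 50627474, plus strand), which encodes the T-type channel Cav3.1, was shared by CMs and stroma. It stood at 14.6 and 12.4 CPM in CMs and at 9.93 and 12.3 CPM in stroma, with 0.216 to 0.595 CPM in all other classes. CMs were higher than endothelial cells by 5.17 ± 0.32 on the log2 scale in edgeR's test (adjusted p = 4.89e-07) and than blood by 4.74 ± 0.24 (adjusted p = 4.32e-08). The difference between CMs and stroma was 0.34 ± 0.24 (adjusted p = 0.296), and in organoid 33.10 the CM and stromal levels nearly coincided.

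**Figure D1:**
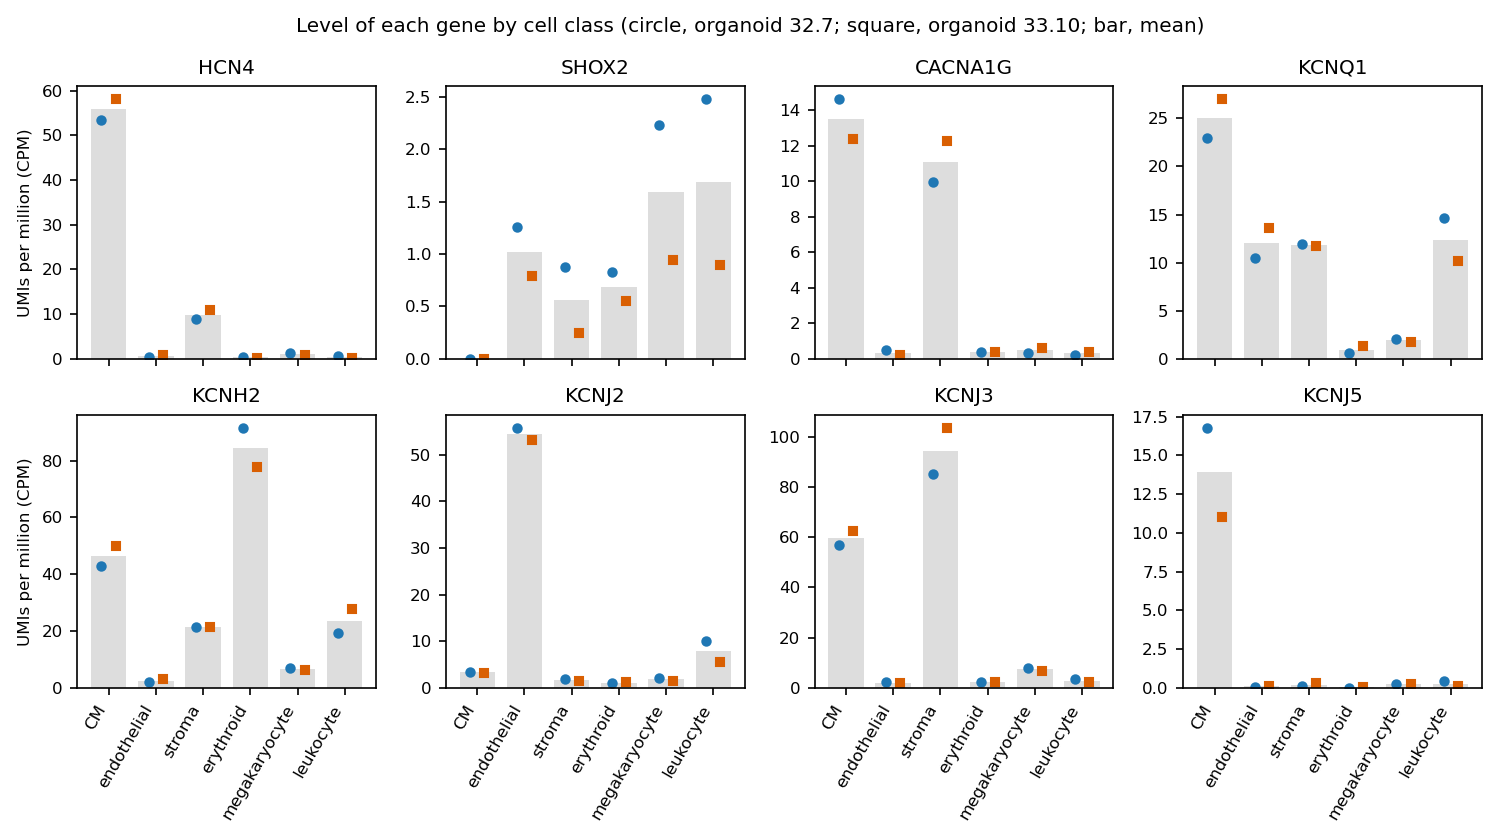
Level of each of the 8 genes in CPM (vertical axes, a separate scale for each gene) in 6 cell classes, with a circle for organoid 32.7, a square for organoid 33.10 and a bar for their mean. HCN4 and KCNJ5 peak in CMs, KCNJ2 in endothelial cells (55.8 and 53.3 CPM), KCNH2 in erythroid cells and KCNJ3 in stroma, and SHOX2 is at 0 in CMs.

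KCNQ1 (chromosome 11, 2444654 to 2849105, plus strand) was detected at similar levels in several classes below CMs. Its level was 23.0 and 27.0 CPM in CMs, 10.5 and 13.6 CPM in endothelial cells, 12.0 and 11.7 CPM in stroma and 14.7 and 10.1 CPM in leukocytes, the last 3 overlapping, with 0.579 to 2.05 CPM in erythroid cells and megakaryocytes. CMs were above the rest in both organoids, by 1.05 ± 0.23 on the log2 scale over endothelial cells (edgeR, adjusted p = 0.00305), 1.14 ± 0.23 over stroma (adjusted p = 0.00329) and 2.76 ± 0.20 over blood (adjusted p = 6.32e-07). The antisense transcript KCNQ1OT1 lies within KCNQ1 and was more abundant, with means of 158 CPM in CMs and 394 CPM in stroma. Exons make up 1.10% of the 404452 bases of KCNQ1, and the authors counted intronic reads. The paper reports Cell Ranger with default parameters and does not describe how strand was handled. Whether reads of KCNQ1OT1 entered the count of KCNQ1 was not tested.

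KCNH2 (chromosome 7, 150944961 to 150978321, minus strand), which encodes the rapid delayed rectifier hERG, was highest outside the heart muscle. Erythroid cells held 91.6 and 77.7 CPM, CMs 42.7 and 50.02 CPM, leukocytes 19.3 and 27.7 CPM, stroma 21.3 and 21.2 CPM, megakaryocytes 6.88 and 6.33 CPM and endothelial cells 1.89 and 3.15 CPM. Only leukocytes and stroma overlapped in this order of 6 classes. After thinning, 20.9% and 15.5% of erythroid cells and 11.7% and 15.3% of CMs held a KCNH2 UMI.

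In edgeR's test CMs had more KCNH2 than endothelial cells by 4.21 ± 0.24 on the log2 scale (adjusted p = 2.52e-07) and than stroma by 1.18 ± 0.20 (adjusted p = 0.00104). Against the mean of the logged blood classes the difference was 0.62 ± 0.16 (adjusted p = 0.006), a mean that hides the erythroid level above that of CMs, and it no longer passed when cells of several gates with MYH6 were kept among CMs (adjusted p = 0.102). KCNH2 UMIs were uneven among erythroid cells: 74 of 652 and 89 of 1748 cells with 5 or more UMIs held 48.1% and 37.1% of them. In CMs 0 and 3 cells had as many. These counts were not adjusted for depth, whose medians were 15237 and 10848 UMIs in erythroid cells and 6851 and 8865 UMIs in CMs. The part of depth was not tested.

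KCNJ2 (chromosome 17, 70168673 to 70180044, plus strand), the Kir2.1 inward rectifier, was an endothelial transcript here. Endothelial cells held 55.8 and 53.3 CPM, against 3.47 and 3.20 CPM in CMs, 10.0 and 5.59 CPM in leukocytes and 0.909 to 2.14 CPM in the other 3 classes. The log2 difference of CMs from endothelial cells was -4.04 ± 0.30 (edgeR, adjusted p = 1.61e-06). After thinning, 11.7% and 13.5% of endothelial cells and 1.11% and 0.905% of CMs held a UMI. KCNJ2-AS1, which overlaps KCNJ2 on the other strand, was also highest in endothelial cells, at 4.85 and 3.23 CPM.

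Against stroma, CMs had more KCNJ2 by 1.05 ± 0.33 (edgeR, adjusted p = 0.0296), but with a gate of 10 MYH6 UMIs this fell to 0.42 (adjusted p = 0.507). The difference from blood was 0.11 ± 0.28 (adjusted p = 0.76). It passed with a gate of 1 MYH6 UMI (1.48), with cells of several gates kept (1.10) and with 10% of each sum removed as free RNA (2.85), and its sign changed with a gate of 10 MYH6 UMIs (-0.54).

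KCNJ3 (chromosome 2, 154697855 to 154858354, plus strand) and KCNJ5 (chromosome 11, 128891356 to 128921163, plus strand) encode the Kir3.1 and Kir3.4 subunits of one channel, yet their levels were distributed differently. KCNJ5 stood at 16.8 and 11.0 CPM in CMs and at 0 to 0.431 CPM in every other class, where no class had more than 11 UMIs per organoid. KCNJ3 stood at 57.0 and 62.5 CPM in CMs and at 85.1 and 104 CPM in stroma, with 1.77 to 7.86 CPM in the remaining classes. Stroma held 149% and 166% of the CM level of KCNJ3 and 0.843% and 2.48% of that of KCNJ5.

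By edgeR's test KCNJ5 was higher in CMs by 7.20 ± 0.54 on the log2 scale over endothelial cells (adjusted p = 1.67e-06), 6.07 ± 0.47 over stroma (adjusted p = 6.44e-06) and 6.40 ± 0.37 over blood (adjusted p = 1.43e-07). These sizes rest on 0 to 11 UMIs outside CMs. KCNJ5 passed the filter on low counts through its CM sums alone, so a call of lower in CMs was not open to it. Without organoid 32.7 the differences were 5.68, 4.95 and 5.64, but between log2 CPM with a small count added. That measure lowers sizes resting on few UMIs, so the drop cannot be read as a difference between organoids. KCNJ3 was higher in CMs than in endothelial cells by 4.89 ± 0.19 (adjusted p = 3.2e-08) and than in blood by 3.67 ± 0.13 (adjusted p = 3.69e-09). Against stroma it was lower, with a log2 difference of -0.60 ± 0.15 (adjusted p = 0.012). That call did not hold with 10% of each sum removed as free RNA (adjusted p = 0.0528) or with PDGFRA left out of the stroma gate (adjusted p = 0.0957).

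KCNJ3 was also the member most unevenly spread among single CMs. In organoid 32.7, 241 CMs held its 608 UMIs, and 26 cells with 5 or more of them had 43.1%. In organoid 33.10, 238 CMs held 703 UMIs and 41 such cells had 47.7%. For HCN4, 13 and 12 such cells had 14.2% and 9.94% of the UMIs, and for KCNJ5 no CM had 5. In stroma 179 and 253 cells with 5 or more KCNJ3 UMIs held 52.9% and 55.6%. Counts per cell were not adjusted for depth, and the part of depth was not tested.

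Counted together, all 8 members passed the filter on low counts. KCNJ5 did so through its CM sums alone and SHOX2 only through other classes, so the direction of these 2 was fixed beforehand. Both stay in the counts that follow. Against endothelial cells 6 of 8 were higher in CMs, where 26.1% of all genes tested were higher, and 2 of 8 lower, where 29.2% were lower. Against stroma 5 of 8 were higher (15.2% of all genes) and 1 of 8 lower (20.4%). Against blood 6 of 8 were higher (32.5%) and 1 of 8 lower (31%), and without TMM scaling the median of all genes in this comparison moved from -0.00142 to 0.353 on the log2 scale and the share of calls that were higher from 51.2% to 68.7%.

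**Figure D2:**
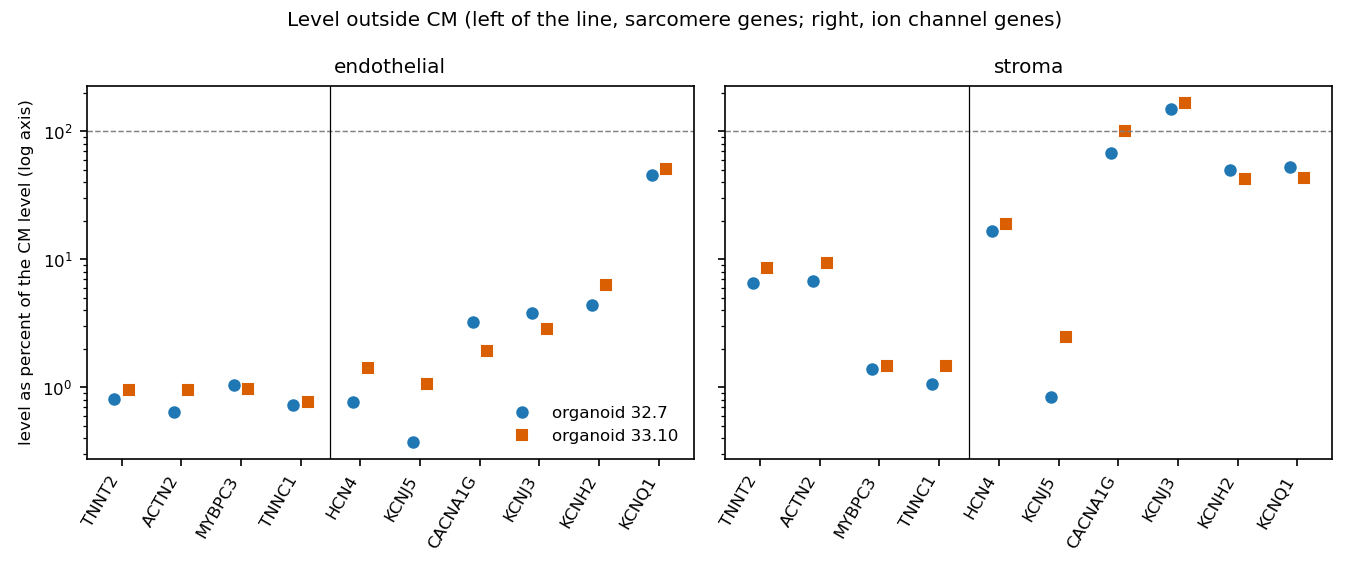
Level in endothelial cells (left) and in stroma (right) as a percent of the level in CMs of the same organoid, on a log axis, for 4 sarcomere genes and 6 members, with the dashed line at 100%. In endothelial cells HCN4 and KCNJ5 lie near the sarcomere genes, and in stroma KCNJ3 lies above 100% (149% and 166%) while KCNJ5 lies at 0.843% and 2.48%.

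The other genes of the programme, from lists of 30 cardiac channels, 20 conduction genes and 8 sinoatrial genes besides the members, were all tested. Among the channels 19 of 30 were higher in CMs than in endothelial cells and 2 lower, where 26.1% and 29.2% of all genes were (median log2 difference 2.28, against -0.05 over all genes), and 13 were higher and 5 lower than in stroma, where 15.2% and 20.4% of all genes were (0.89 against -0.09). CACNA1D, an L-type channel of pacemaker cells, was higher in CMs than in stroma by 3.23 ± 0.16 (edgeR, adjusted p = 3.68e-07).

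Among sinoatrial genes, 2 of 8 were higher in CMs than in endothelial cells and 3 lower, and 1 was higher and 3 lower than in stroma, shares read against 26.1%, 29.2%, 15.2% and 20.4% of all genes and resting on few genes. With the organoid as a block 4 were higher and 3 lower than in endothelial cells, where 6203 and 7024 of 21762 genes were. Against stroma the block gave 3 higher and 3 lower, where 3890 and 5397 of 21762 genes were. The 3 lower than in stroma include TBX18, a transcription factor of the sinoatrial head and the epicardium. TBX18 stays in that count, but its direction is fixed by the stroma gate and is no result. It stood at 1.499 and 1.333 CPM in CMs and 52.8 and 62.2 CPM in stroma. ISL1, a transcription factor of cardiac progenitors and the sinoatrial node, stood at 8.72 and 4.80 CPM in CMs and 16.0 and 14.7 CPM in stroma. NKX2-5, a factor of working myocardium, was at 299 and 272 CPM in CMs. Among conduction genes 9 of 20 were higher in CMs than in endothelial cells (26.1% of all genes) and 3 lower (29.2%), with GJA5, the connexin of fast conduction, at 2.62 and 2.49 CPM in CMs and 39.0 and 33.3 CPM in endothelial cells. Against stroma 8 of 20 were higher in CMs (15.2% of all genes) and 7 lower (20.4%), with a median log2 difference of 0.10 against -0.09 over all genes. Against blood 32.5% of all genes were higher in CMs and 31% lower. There 20 of 30 channels were higher and 2 lower, and 15 of 20 conduction genes were higher and 2 lower. Of the sinoatrial genes 5 of 8 were higher than in blood and 2 lower.

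Within cells that passed no other gate, the members were followed over the MYH6 count. HCN4 went from 2.77 and 3.06 CPM in cells without MYH6 to 70.4 and 67.5 CPM in cells with 20 or more MYH6 UMIs. KCNJ5 went from 0.303 and 0.320 CPM to 20.6 and 11.8 CPM. KCNJ3 covered a narrower range, from 39.3 and 40.1 CPM to 63.0 and 67.0 CPM. KCNJ2 ran the other way, from 19.02 and 23.12 CPM to 0.337 and 3.08 CPM, the last values resting on 2 and 19 UMIs. The endothelial gate gene CDH5 moved with it, from 44.6 and 53.8 CPM to 2.70 and 2.91 CPM, and median depth went from 2775 and 3470 UMIs to 13573 and 14112 UMIs. Their part in the trend was not tested.

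**Figure D3:**
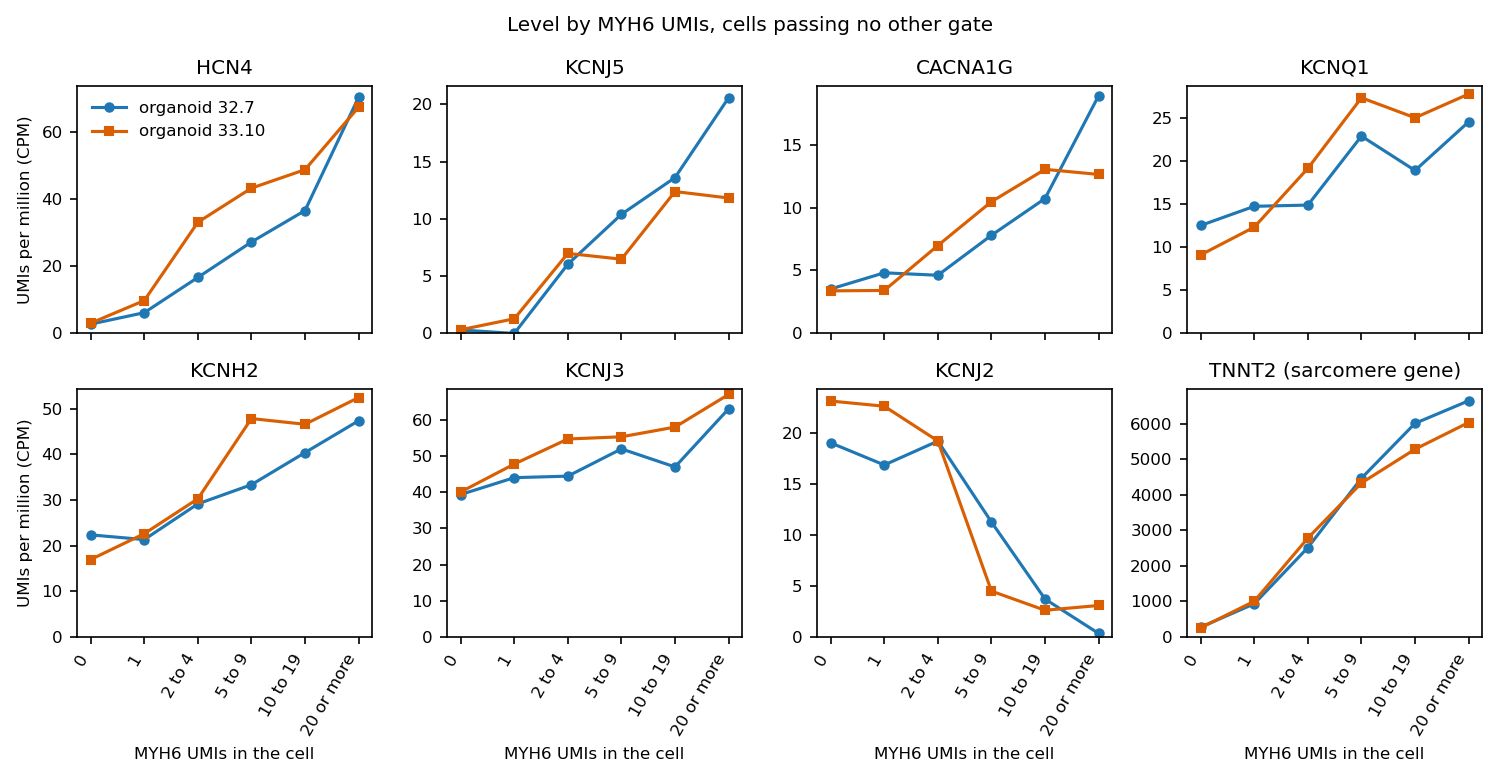
Level in CPM (vertical axes) against the number of MYH6 UMIs in the cell (horizontal axis, 6 bins), for 7 members and the sarcomere gene TNNT2 in cells passing no other gate, 1 line per organoid. HCN4 and KCNJ5 are higher in each organoid's highest bin than in its cells without MYH6, as TNNT2 is, and KCNJ2 is lower (0.337 and 3.08 against 19.02 and 23.12 CPM).

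Co-detection within CMs was close to what depth alone gives. For each pair, the number of CMs with both genes was divided by the number expected from the separate shares within 10 strata of total UMIs. Of the 28 pairs, 7 hold SHOX2 and had no value. Over the pairs with an expected count of 5 or more, the median ratio was 1.02 in organoid 32.7 (18 pairs, 0.289 to 1.49) and 1.06 in organoid 33.10 (19 pairs, 0.676 to 1.30). Without strata of depth the medians were 1.52 and 1.27.

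HCN4 was found with CACNA1G in 56 and 58 CMs, 1.10 and 1.24 times the number expected. HCN4 with KCNJ5 gave 61 and 53 CMs (1.11 and 1.16 times), and HCN4 with KCNJ3 98 and 119 CMs (1.07 and 1.17 times). KCNJ3 and KCNJ5, the partners of one channel, were found together in 26 and 27 CMs, 0.684 and 0.981 times the number expected. HCN4 and KCNJ2 met in 3 and 10 CMs (0.451 and 0.948 times). Several of these pairs differed between the organoids by as much as they did from 1.

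**Figure D4:**
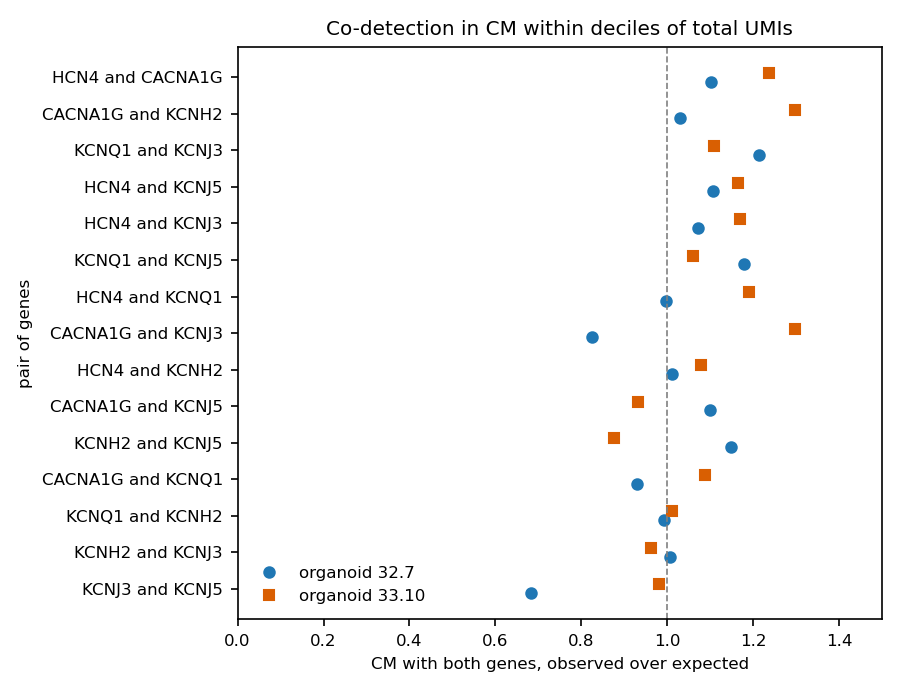
CMs with both genes, observed over expected (horizontal axis, dashed line at 1), for the 15 pairs without SHOX2 and KCNJ2, with a circle for organoid 32.7 and a square for organoid 33.10. KCNJ3 with KCNJ5 is the lowest pair (0.684 and 0.981) and HCN4 with CACNA1G the highest by the mean of both organoids (1.10 and 1.24).

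CMs with an HCN4 UMI (320 and 382) were compared with as many CMs without one, each paired to the nearest depth left. The difference in HCN4 itself is given by the grouping. Pairing did not equalize depth: the medians were 12842.5 and 12560 UMIs in HCN4-positive CMs against 11489 and 10959.5 UMIs in HCN4-negative CMs. Of the other members 6 were tested and 0 were called by edgeR, where 0.496% of all genes were, 2 of the 6 were under 0.05 unadjusted (KCNJ3 and CACNA1G), and DESeq2 called 0. KCNJ3 stood at 71.7 and 74.5 CPM in HCN4-positive CMs and 56.0 and 49.8 CPM in HCN4-negative CMs, a log2 difference of 0.45 ± 0.12 (edgeR, adjusted p = 0.167). With the organoid as a block it passed (adjusted p = 0.00156), where 8.3% of all genes did.

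The genes called between these CMs that changed most include CORIN, the protease that activates natriuretic peptide, higher by 0.62 ± 0.11 (edgeR, adjusted p = 0.0405) at 327 and 361 CPM against 219 and 225 CPM, and DLGAP1, GAREM1, PLXNA4 and AC012494.1 were higher with it. TAC1 and NPY, which encode neuropeptides, NR2F2, an atrial and venous transcription factor, CPNE8 and GJA4, an endothelial connexin, were lower. The log2 difference of TAC1 was -3.86, with -5.22 without organoid 32.7 and -1.73 without organoid 33.10, and that of NPY was -3.17, with -3.45 and -2.29. NR2F2 stood at 2.72 and 3.28 CPM in HCN4-positive CMs and at 17.0 and 10.9 CPM in HCN4-negative CMs, with a log2 difference of -2.20 ± 0.33 (edgeR, adjusted p = 0.0243). The count of genes called dropped from 74 to 1 when the 10% of CMs with the most UMIs were left out, and to 1 when PDGFRA was left out of the stroma gate. The 74 were 9 higher and 65 lower, and the 1 gene left in either of these settings was lower. The 5 genes named as higher were thus not called there. With pairs held within 10% of total UMIs 25 genes were called, 1 higher and 24 lower. Markers of other classes moved with the grouping: 5 of 5 endothelial, 5 of 5 stromal, 5 of 5 erythroid and 5 of 5 megakaryocyte markers were lower in HCN4-positive CMs in both organoids, with summed endothelial markers at 196 and 182 CPM against 391 and 280 CPM, and their part was not tested.

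Cycling CMs, with 3 or more UMIs of TOP2A and MKI67 (41 and 36 cells against 1051 and 977 with none), were compared next, without pairing on depth. Their median depth was 9560 and 15725.5 UMIs, against 6729 and 8318 UMIs in the others. By edgeR 0 of 7 members tested were called, where 5.45% of all genes were, while 2 were under 0.05 unadjusted (KCNJ3 and KCNQ1) and DESeq2 called 0. HCN4 stood at 39.9 and 49.1 CPM in cycling CMs and 54.8 and 58.7 CPM in the others, with a log2 difference of -0.37 ± 0.23 (adjusted p = 0.436). KCNJ3 stood at 37.8 and 47.5 CPM against 58.2 and 63.6 CPM, with a log2 difference of -0.53 ± 0.23 (adjusted p = 0.233). It passed when PDGFRA was left out of the stroma gate (adjusted p = 0.0387). Of the CM markers 4 of 5 were lower in cycling CMs in both organoids, with sums of 9944 and 10820 CPM against 15115 and 13648 CPM. Summed megakaryocyte markers were higher, at 286 and 319 CPM against 134 and 176 CPM (3 of 5 higher in both organoids, 1 lower). So were leukocyte markers, at 322 and 32.7 CPM against 35.9 and 15.3 CPM (2 of 5 higher, 0 lower). Stromal markers were at 565 and 517 CPM against 494 and 272 CPM (2 of 5 higher, 0 lower). Their part was not tested.

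Stromal cells with a UMI of TBX18 (741 and 1040) were compared with stromal cells of the same depth without one. HCN4 stood at 21.3 and 22.6 CPM in TBX18-positive cells and at 3.07 and 3.85 CPM in TBX18-negative cells, higher by 2.61 ± 0.17 on the log2 scale (edgeR, adjusted p = 0.0347), the largest rise among genes called at 10 CPM or more. It was the 1 of 6 members called, where 0.258% of all genes were, 3 of the 6 were under 0.05 unadjusted, and DESeq2 called 2. VWDE, TECRL, a reductase gene linked to inherited arrhythmia, GRID1 and GABRB2 followed, and CPNE5 of the sinoatrial list, at 38.1 and 36.6 CPM against 13.1 and 16.8 CPM, was also called (1.27 ± 0.14, adjusted p = 0.0483). PPP2R2B, SHISA3, LHX1, DCC and AC106729.1 were lower.

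With the organoid as a block 4 of 6 members passed, where 9.31% of all genes did. CACNA1G was higher in TBX18-positive cells by 0.91 (adjusted p = 0.00576) and KCNJ3 by 0.43 (adjusted p = 0.00573), while KCNH2 fell by 0.75 on the log2 scale (adjusted p = 0.00864). KCNH2 stood at 12.9 and 16.5 CPM in TBX18-positive cells and 24.99 and 23.46 CPM in TBX18-negative cells. Summed sarcomere markers stood at 899 and 894 CPM in TBX18-positive cells against 420 and 654 CPM, with 2 of 5 higher in both organoids and 0 lower in both, and their part was not tested. TBX18 is part of the stroma gate, so negative cells had to pass it by the other 4 genes, and 5 of 5 stromal markers outside the gate were lower in TBX18-positive cells.

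Stromal cells with and without KCNJ3, a comparison chosen after its level was seen, share cells with those just described. HCN4 stood at 14.5 and 16.9 CPM in KCNJ3-positive cells against 6.09 and 7.26 CPM (1.12 ± 0.16 on the log2 scale, edgeR, adjusted p = 0.0275), and CACNA1G at 14.9 and 17.7 CPM against 6.39 and 8.64 CPM (1.00 ± 0.18, adjusted p = 0.0437). These were 2 of 6 members tested, where 4.2% of all genes were called, and neither passed without the 10% of cells with the most UMIs (adjusted p = 0.0578 and 0.076). With the organoid as a block 3 of 6 passed, KCNJ2 being the third (lower, adjusted p = 0.0427), where 30.1% of all genes did. TBX18 itself was higher in KCNJ3-positive cells (0.79 ± 0.10, adjusted p = 0.0231), as were TBX5 and CACNA1D, while TBX3, TBX2, ISL1 and NKX2-5 were lower. The genes that fell most were HTR2C (-3.34, but -2.65 without organoid 32.7 and -4.19 without 33.10), IL33, F2RL1, COLEC10 (-2.90, but -2.31 and -3.65) and IL7R, and those that rose most were AC087857.1, AC106729.1, RIMBP2, DACH2 and CNTNAP4. In KCNJ3-positive cells 5 of 5 endothelial markers were lower in both organoids, with sums of 368 and 353 CPM against 549 and 519 CPM, 4 of 5 erythroid markers were lower and 4 of 5 stromal markers higher, and their part was not tested.

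**Figure D5:**
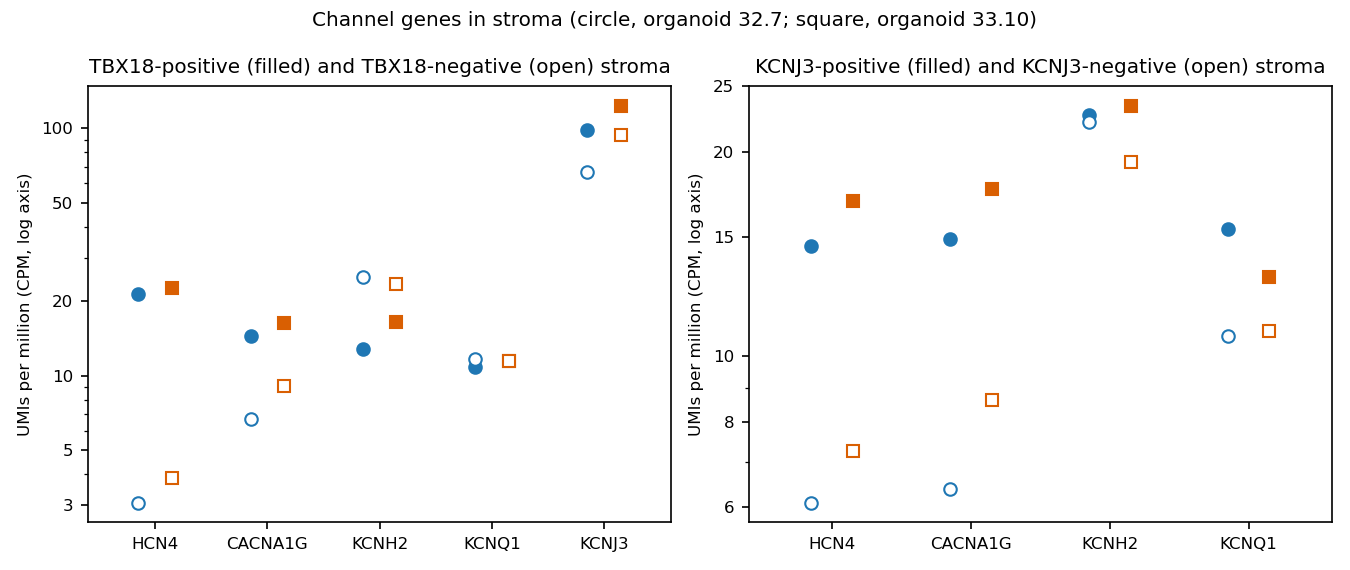
Level in CPM (log axes) of members in stromal cells with (filled) and without (open) a UMI of TBX18 (left) or KCNJ3 (right), with a circle for organoid 32.7 and a square for organoid 33.10. HCN4 is higher in both organoids in TBX18-positive cells (21.3 and 22.6 against 3.07 and 3.85 CPM) and in KCNJ3-positive cells (14.5 and 16.9 against 6.09 and 7.26 CPM).

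Endothelial cells with and without KCNJ2, likewise chosen after the levels were seen, differed in 0 of 4 members tested by edgeR, where 1.48% of all genes were called, with 1 (KCNH2) under 0.05 unadjusted and 0 called by DESeq2. With the organoid as a block KCNH2 was lower (adjusted p = 0.00963), where 15.7% of all genes passed. NR2F2, which specifies veins, stood at 24.2 and 24.7 CPM in KCNJ2-positive cells and 131 and 129 CPM in KCNJ2-negative cells, with a log2 difference of -2.38 ± 0.10 (adjusted p = 8.71e-05). NR2F2-AS1, FLRT2, CCDC80, ACP5 and C7 fell most, and APLN, a tip-cell peptide, ARHGEF28, CCN1, LINC01483 and AP002989.1 rose most. APLN stood at 46.2 and 34.9 CPM against 18.4 and 19.1 CPM (1.15 ± 0.17, adjusted p = 0.0196), and GJA1, a connexin, at 558 and 514 CPM against 362 and 335 CPM (0.65 ± 0.11, adjusted p = 0.0344). In KCNJ2-positive cells 3 of 5 stromal markers were lower in both organoids, with sums of 107 and 56.2 CPM against 151 and 84.7 CPM, and their part was not tested.

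KCNJ3 in CMs and KCNH2 in erythroid cells were divided in the same way, again after the levels were seen. In CMs 0 of 6 members and 0% of all genes were called by edgeR, while 2 members and 1027 of 13848 genes were under 0.05 unadjusted and DESeq2 called 0 members and 23 genes. With the organoid as a block 0 members and 1.91% of all genes passed. In KCNJ3-positive CMs 5 of 5 stromal markers were higher in both organoids, with sums of 634 and 383 CPM against 362 and 257 CPM, and 3 of 5 CM markers were lower, and their part was not tested. Pairing on depth kept 171 of 358 and 488 of 736 KCNH2-positive erythroid cells. Their median depth was 13478 and 12280.5 UMIs, against 22489.5 and 16321 UMIs for all of them, so the comparison covers the shallower part. In erythroid cells 1 member could be tested and was not called, where 0.0558% of all genes were and, with the block, 16%. KCNJ3, that member, stood at 0.776 and 2.39 CPM in KCNH2-positive cells and 3.31 and 3.71 CPM in the others, 0 members were under 0.05 unadjusted and DESeq2 called 0. ITGA4, an adhesion receptor, was higher in KCNH2-positive erythroid cells (1.47 ± 0.18, edgeR, adjusted p = 0.0152). In KCNH2-positive erythroid cells 5 of 5 megakaryocyte markers were lower in both organoids, with sums of 104 and 253 CPM against 195 and 523 CPM, as were 4 of 5 stromal markers, and their part was not tested.

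Across the 12 sums of 6 classes and 2 organoids, the genes whose log2 levels followed each member most closely among 12529 were a description of class patterns that share libraries. HCN4 was followed by PKP2 and TNNI1 (Pearson's r of 0.997 and 0.996), desmosomal and sarcomere genes, and KCNJ5 by TCAP and IRX4 (0.998 and 0.996), a sarcomere gene and a ventricular transcription factor. KCNJ3 was followed by TENM4 and CHRM2 (0.992 and 0.990), the latter the muscarinic receptor whose signal opens the KCNJ3 channel. CACNA1G was followed by SDK2 and TEAD3, KCNJ2 by MGST2 and CCM2L, KCNQ1 by SMCO4 and SCAPER, and KCNH2 by HDDC2 and LINC00937 (0.938 to 0.994). SHOX2 had the least close followers, SLC66A2 and H2AFZ (0.919 and 0.887).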

How the data were processed

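Gene by cell matrices of deposited counts, 1 per organoid, were used as the authors made them with Cell Ranger against GRCh38 (tool and build per the submitters' notes). Intronic reads were included, and the removal of free RNA and the depth equalization that the study made later are not in these values. Cells with 50 to 11000 genes and under 30% mitochondrial UMIs were kept, and classes were set by gates on raw UMI counts. No doublet caller was run, and cells passing several gates were left out. Counts were summed per class and organoid and tested with edgeR 4.0.16 in R 4.3.3 (TMM scaling, low genes filtered, quasi-likelihood F test, Benjamini-Hochberg adjustment, threshold 0.05), with DESeq2 1.42.0 as an alternative. Positive and negative cells were paired on total UMIs, with no limit on the difference for HCN4 and TBX18. For KCNJ3, KCNJ2 and KCNH2 pairs lay within 10%. Cycling CMs were not paired. Genes that split a class into groups, and MYH6 between classes, were not counted as results. The other gate genes stayed in the tests between classes and in the shares of all genes. Shares, intervals and figures were made in Python 3.11.15 with scipy 1.17.1 and matplotlib 3.10.9. Scripts were tested on simulated counts.

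The members and lists were chosen with earlier results of these data known. The genes named per grouping are the 5 with the largest log2 difference in each direction among those called with at least 10 CPM in the higher group, besides genes of the lists and, for each member, the 2 genes with the highest correlation. The groupings by KCNJ3, KCNJ2 and KCNH2, the stroma gate without PDGFRA and the pairing within 10% of total UMIs were added after levels were seen. Every class of an organoid shares its library, so the organoid pairs the sums: deviations of the same organoid correlated in all 15 pairs of classes (r 0.149 to 0.363). The fit without this block is the one reported, and the blocked value is given where it changes a call of a member. Endodermal cells (24 and 12) were not compared, since 20 per organoid were required. Floors are 3 counts, and 95% intervals and floors cover counting error only.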

Additional observations from a re-analysis of the deposited data

Results flagged for a closer look

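Cells passing several gates and cells passing none entered no main test, yet every member was detected in both above the level that 3 counts allow (0.0670 and 0.117 CPM). Cells passing none numbered 6320 in organoid 32.7 and 5934 in organoid 33.10, or 37.6% and 29.8% of cells kept. They make up the bins below 5 MYH6 UMIs described above. In cells of several gates the mean of the 2 organoids was 18.3 CPM for HCN4, 0.699 CPM for SHOX2, 6.95 CPM for CACNA1G and 13.1 CPM for KCNQ1. It was 28.5 CPM for KCNH2, 13.6 CPM for KCNJ2, 41.7 CPM for KCNJ3 and 3.71 CPM for KCNJ5. In cells of no gate the mean was 5.18 CPM for HCN4, 0.585 CPM for SHOX2, 3.71 CPM for CACNA1G and 11.6 CPM for KCNQ1, and 20.7 CPM for KCNH2, 20.8 CPM for KCNJ2, 41.1 CPM for KCNJ3 and 0.874 CPM for KCNJ5. With 2 organoids per class no sample could be tested for standing apart.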

How the results depend on the processing

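Of the other values recomputed, 529 single-gene values kept direction and side of the threshold, 19 passed only under the alternative, 6 no longer passed and 12 shares of cells moved. Signs turned for 11 values that were not called: CACNA1G between CMs and stroma at 1 MYH6 UMI (-0.032), KCNJ2 between CMs and blood at 10 MYH6 UMIs (-0.54) and without PDGFRA in the gate (-0.14), and, without the 10% of cells with most UMIs, KCNQ1 by HCN4 (-0.0185), KCNH2 and KCNJ2 in cycling CMs (0.075 and 0.28) and KCNQ1 by TBX18 (0.0171, and 0.00681 without PDGFRA). CACNA1G by KCNJ3 in CMs turned without PDGFRA (0.0152) and without matching (0.18), and SHOX2 by KCNJ2 without matching (-0.0199). The causes were not tested.

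With the organoid as a replicate block (pairing), members called became 1 by HCN4 in CMs, 4 by TBX18 and 1 by KCNJ2, and genes called became 1238 by HCN4, 1699 by TBX18, 264 by KCNJ3 in CMs, 5665 by KCNJ3 in stroma, 2532 by KCNJ2 and 2002 by KCNH2, against 74, 47, 0, 791, 239 and 7 without it. The member calls it changed stand with the results, and it changed no other call of a member. With the block 21 of 30 channels were higher in CMs than in endothelial cells and 2 lower, and 12 of 20 conduction genes higher and 3 lower. Against stroma 16 channels were higher and 5 lower, and 8 conduction genes higher and 8 lower. Of all 21762 genes 6203 were higher and 7024 lower than in endothelial cells, and 3890 and 5397 than in stroma. Without a filter beyond 1 UMI genes called became 536 by HCN4, 1262 in cycling CMs, 1299 by TBX18, 3023 by KCNJ3 in stroma, 821 by KCNJ2 and 412 by KCNH2, and members called 4 by TBX18 and 1 by KCNJ2. DESeq2 called 2 members and 375 genes by TBX18, 23 genes by KCNJ3 in CMs, 1395 by KCNJ3 in stroma and 29 by KCNH2. Without TMM 72 genes were called by TBX18 and 3 by KCNH2. Without the 10% of cells with most UMIs the counts were 1 gene by HCN4, 557 in cycling CMs (837 in all), 150 by TBX18, 11 by KCNH2 and 0 members by KCNJ3 in stroma. Without PDGFRA they were 1 gene by HCN4, 1583 and 1 member in cycling CMs, 123 by TBX18, 9 by KCNJ3 in CMs, 1275 by KCNJ3 in stroma and 4 by KCNH2. Without matching on depth they were 12 by HCN4, 12 by TBX18, 1350 by KCNJ3 in stroma and 1278 and 1 member by KCNH2. By HCN4, 32 genes were called in cells of at least 2000 UMIs, 25 with pairs within 10% of total UMIs and 8 at 10 MYH6 UMIs, where 3 were called by KCNJ3.

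At 1 MYH6 UMI the mean CM level was 43.3 CPM for HCN4, 0.122 CPM for SHOX2, 10.8 CPM for CACNA1G, 22.0 CPM for KCNQ1, 40.1 CPM for KCNH2 and 8.25 CPM for KCNJ2. At 10 it was 61.0 CPM for HCN4 and 2.12 CPM for KCNJ2. HCN4 was detected in 26.3% of CMs at 6000 UMIs and 30.9% without thinning, and the co-detection ratio without depth strata was 1.39. Leaving out an organoid leaves 1 sum per class, so those values carry no test. They are differences of log2 CPM with a small count added, not refits, which lowers sizes that rest on few UMIs. Comparisons of SHOX2-positive CMs and of endodermal cells could not be run. KCNJ5 outside CMs and SHOX2 everywhere rest on few UMIs.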
